A study of Mus musculus with 6 samples.

Results

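Gas6 and Pros1, the ligands of the TAM receptor tyrosine kinases, and the receptors Axl, Mertk and Tyro3 were followed in neural stem cells with and without the DNA methyltransferase Dnmt3a. The genes were chosen on a measured value, the higher Gas6 signal in differentiating Dnmt3a-null cells, so for all 5 members the values of that contrast are a description with no test. Members were the 8 spots, of 43379 gene spots per array, whose name or accession belongs to these 5 genes, of 28786 named genes. All 5 members were bright enough to be among the 18062 genes tested. Neural stem cells were isolated at postnatal day 14 to 21 from the walls of the lateral ventricle, the subventricular zone, and grew as monolayers with FGF-2 and EGF at 10 ng/ml each. On each of 6 arrays, wild type (WT) RNA in one dye was set against Dnmt3a-null (KO) RNA in the other dye. Proliferating cells, kept in both mitogens, filled 4 arrays, and differentiating cells, replated for 2 days with mitogen and then kept 3 days without, filled the other 2. The labels give neither the driver of the deletion nor the number of animals behind a culture. They do call the arrays biological replicates, so p-values measure the spread between these cultures.

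TAM receptors are named from the initials of Tyro3, Axl and Mertk. Gas6 and protein S, the product of Pros1, carry a domain that vitamin K-dependent carboxylation enables to bind phosphatidylserine on dying cells, and their other end binds the receptor, so that the ligand bridges a dying cell and the cell that engulfs it. Gas6 binds all receptors of the family, whereas protein S acts on Tyro3 and Mertk. In the brain the family is known for clearance of dying cells by microglia and astrocytes, and Gas6 for support of oligodendrocyte survival and myelination.

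Because KO cells lack a DNA methyltransferase, the CpG sites before the start of each gene were counted, and the windows of both ligands are printed here as the pair that differed in its ratios. These are RefSeq sequences of build GRCm38.p6, 250 bases before the annotated start, with each CG in capitals. All 5 members had a window. The Gas6 window is chr8:13494536-13494785 on the minus strand and holds 10 CG.
Gas6: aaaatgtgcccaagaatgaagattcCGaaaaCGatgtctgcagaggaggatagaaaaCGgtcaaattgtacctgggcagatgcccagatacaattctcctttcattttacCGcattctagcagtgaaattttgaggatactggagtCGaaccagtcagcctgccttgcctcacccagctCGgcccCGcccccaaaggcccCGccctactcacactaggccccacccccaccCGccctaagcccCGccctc
The Pros1 window is chr16:62854057-62854306 on the plus strand and holds 15 CG.
Pros1: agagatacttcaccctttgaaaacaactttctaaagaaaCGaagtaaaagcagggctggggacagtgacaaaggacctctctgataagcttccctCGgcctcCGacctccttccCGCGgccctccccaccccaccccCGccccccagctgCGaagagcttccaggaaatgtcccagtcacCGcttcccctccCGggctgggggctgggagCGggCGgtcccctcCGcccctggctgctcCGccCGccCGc
The motif CG reads the same on both strands, and 92.1% of all 32851 windows of this length hold it, with a median of 6. The windows of Axl, Mertk and Tyro3 hold 5, 7 and 24. Fewer CG than in the Gas6 window were counted in 62.2% of all windows, and fewer than in the Tyro3 window in 88.0%. These counts are a description of the sequence, since methylation was not measured on these arrays.

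Dnmt3a itself was dimmer in the KO channel of every array. Its log2 signal in proliferating cells was 8.54 to 8.76 in WT and 7.44 to 8.01 in KO, and in differentiating cells 8.89 and 9.27 in WT against 7.61 and 7.78 in KO. No source used here says if this probe lies in the deleted part, and outside it the probe would be no check. Between 52.0% and 58.8% of gene probes were well above background per channel. Proliferating replicates 3 and 4 stood apart in genes of the sex chromosomes. There the X-inactivation RNA Xist reached 12.69 and 13.34 (log2 signal) in the WT channels, 11.28 and 11.06 in the KO channels, and at most 6.08 on the other arrays. Ddx3y, a gene of the Y chromosome, was at 6.10 and 5.90 in the WT channels there, at 8.51 and 8.84 in the KO channels, and at 9.01 or more on the other arrays. Within replicates 3 and 4 the WT and KO channels thus differed in both genes, so genotype and this difference cannot be told apart in their ratios. Proliferating replicate 4 also correlated least with the other proliferating arrays (mean r = 0.956 in WT and 0.961 in KO, against 0.970 to 0.977 for the rest). The members' results on proliferating cells, from the brightest probe of each, are therefore given with and without replicates 3 and 4. Per the file headers, all proliferating arrays lay on 1 slide and both differentiating arrays on another. A KO over WT ratio is measured within an array, whereas a change between proliferating and differentiating cells cannot be told apart from the slide.

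Gas6, the ligand of all 3 receptors, was brighter in the KO channel of every array. Its probe lies at chr8:13439664-13439723 of build mm7. The raw mean pixel signals in proliferating cells were 3676 to 12370 in the KO channels and 453 to 2171 in the WT channels, over local backgrounds of 34 to 43.5. After normalization the log2 signals of proliferating replicates 1 to 4 were 10.36, 10.54, 9.17 and 9.17 in WT cells and 12.09, 12.20, 12.98 and 11.98 in KO cells. The genotypes did not overlap, and the WT level was lower in replicates 3 and 4 than in 1 and 2. The log2 KO over WT ratios were 1.73, 1.65, 3.81 and 2.81, so replicates 1 and 2 lay below replicates 3 and 4. Their mean was 2.50 ± 1.02 (SD, n = 4), a 5.66-fold higher signal, with a 95% interval of 1.58 to 3.43 and the 9th highest ratio of all tested genes. Limma's test across all genes gave an adjusted p of 0.0575, which did not pass 0.05. Without proliferating replicates 3 and 4 the mean was 1.69, 3.23-fold, and it did pass, with an adjusted p of 0.0165. Both fits draw their spread partly from the differentiating arrays that chose the gene, and with all 4 proliferating arrays fitted alone the adjusted p was 0.189.

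In differentiating cells, the contrast that chose the genes, the Gas6 log2 signals were 9.82 and 9.29 in WT and 13.11 and 12.42 in KO. The ratios were 3.29 and 3.13 with a mean of 3.21 ± 0.11 (SD, n = 2), a 9.26-fold higher signal. Both lie inside the range of the proliferating ratios, between the values of proliferating replicates 4 and 3. The difference of the condition means was 0.71, and 1.52 without proliferating replicates 3 and 4. In the authors' deposited table the log2 ratios were 1.84, 1.59, 4.00 and 2.85 in proliferating and 3.32 and 3.32 in differentiating cells.

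**Figure D1:**
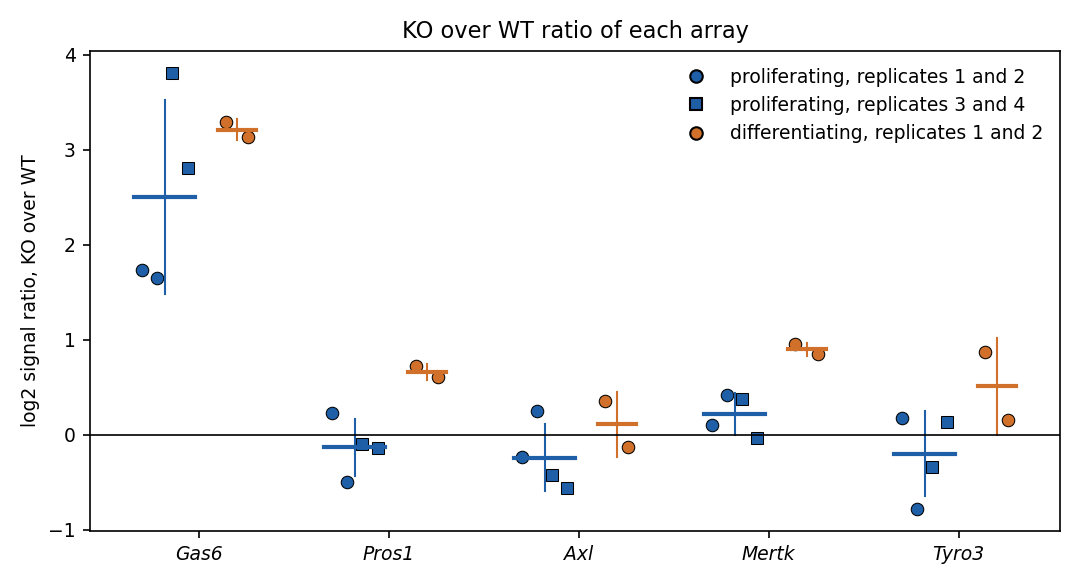
Log2 signal ratio of KO over WT cells (vertical axis) on each array for Gas6, Pros1, Axl, Mertk and Tyro3. Points are arrays, horizontal lines the mean and vertical lines the SD (n = 4 proliferating, n = 2 differentiating); Gas6 lies at 1.65 or more on every array, and every other ratio is below 1.

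Pros1, the other ligand, had no such ratio in proliferating cells. Its brighter probe lies at chr16:62869274-62869333 of build mm7. The log2 signals of proliferating replicates 1 to 4 were 11.63, 11.51, 11.96 and 12.15 in WT and 11.85, 11.01, 11.86 and 12.01 in KO cells, so the genotypes overlapped. The ratios were 0.23, -0.50, -0.10 and -0.14, with a mean of -0.13 ± 0.30 (95% interval -0.41 to 0.15, adjusted p = 0.653), and without replicates 3 and 4 the mean was -0.14. In differentiating cells the signals were 9.49 and 9.96 in WT and 10.20 and 10.56 in KO, without overlap. The ratios there were 0.72 and 0.61, a mean of 0.66 ± 0.08 or 1.58-fold. The dimmer probe, at chr16:62868597-62868656, gave means of -0.03 ± 0.38 and 0.46 ± 0.21.

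Axl, the receptor that responds to Gas6 and not to protein S, had ratios on both sides of 0 in both conditions. Its probe lies at chr7:22531966-22532025 of build mm7. The log2 signals of proliferating replicates 1 to 4 were 8.14, 7.67, 7.82 and 8.91 in WT and 7.91, 7.92, 7.41 and 8.35 in KO cells. The genotypes overlapped, and replicate 4 was the highest in both. The ratios were -0.23, 0.25, -0.42 and -0.56 with a mean of -0.24 ± 0.35 (95% interval -0.60 to 0.12, adjusted p = 0.479), and without replicates 3 and 4 the mean was 0.01. In differentiating cells the ratios were 0.35 and -0.13, with a mean of 0.11 ± 0.34.

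Mertk, the receptor best known for engulfment of dying cells, had a small positive mean in proliferating cells and a ratio above 0 on both differentiating arrays. Its probe lies at chr2:128542984-128543043 of build mm7. The log2 signals of proliferating replicates 1 to 4 were 7.81, 7.76, 7.65 and 8.38 in WT and 7.91, 8.19, 8.03 and 8.35 in KO cells, with overlap. The ratios were 0.10, 0.42, 0.38 and -0.03 with a mean of 0.22 ± 0.22 (95% interval -0.03 to 0.47, adjusted p = 0.372), and without replicates 3 and 4 the mean was 0.26. The differentiating signals were 8.29 and 8.19 in WT against 9.24 and 9.04 in KO, which do not overlap. Their ratios were 0.95 and 0.85 with a mean of 0.90 ± 0.07, 1.87-fold.

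Tyro3, the receptor most tied to neurons in the adult brain, had the widest spread of ratios among the receptors. Its brightest probe lies at chr2:119558387-119558446 of build mm7. The log2 signals of proliferating replicates 1 to 4 were 11.29, 11.03, 10.35 and 12.02 in WT and 11.47, 10.25, 10.00 and 12.15 in KO cells, a range of 1.68 in WT and 2.15 in KO. The ratios were 0.18, -0.78, -0.34 and 0.13, on both sides of 0, with a mean of -0.20 ± 0.45 (95% interval -0.71 to 0.31, adjusted p = 0.705), and without replicates 3 and 4 the mean was -0.30. In differentiating cells the ratios were 0.87 and 0.15, a mean of 0.51 ± 0.51. A neighbouring probe (chr2:119558149-119558208) gave means of -0.18 ± 0.40 and 0.47 ± 0.44. The remaining probe (chr2:119542492-119542551) was well above background in 10 of 12 channels and gave -0.09 ± 0.09 and -0.01 ± 0.01. Its mean log2 intensity was 6.76, against 10.54 for the brightest probe and 9.81 for the neighbouring one. Differences are understated for dim probes, and whether the Tyro3 probes disagree in differentiating cells was not tested.

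None of the 5 members passed limma's test in proliferating cells, and 1 of the 5, Gas6, had an unadjusted p under 0.05, as had 2885 of all 18062 genes. Over all tested genes 0.615% passed as higher and 0.338% as lower in KO cells in that condition, and 2.18% and 0.902% in differentiating cells. A miss of the threshold does not show equal levels.

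**Figure D2:**
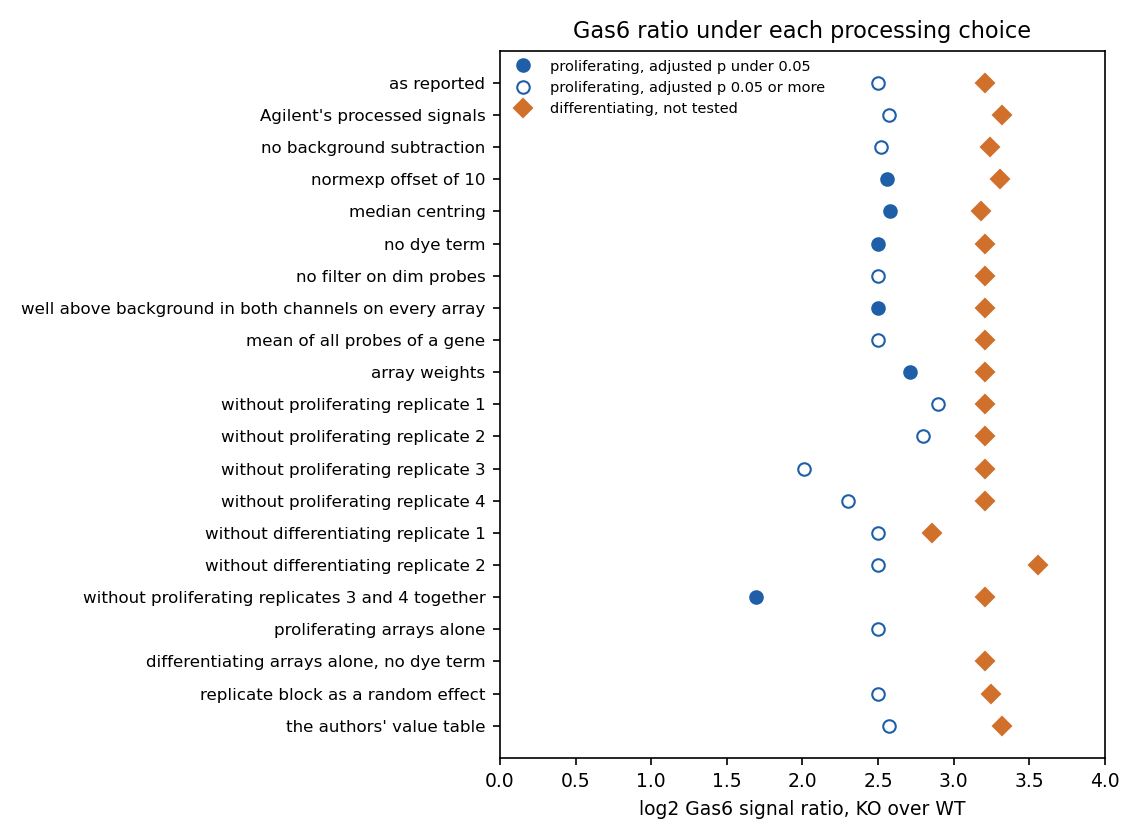
Mean log2 Gas6 signal ratio of KO over WT cells (horizontal axis) under each processing choice (rows), in proliferating cells as circles, filled where the adjusted p was under 0.05, and in differentiating cells as diamonds, not tested. The proliferating value ran from 1.69 to 2.90 and passed under 6 of 19 alternatives, and the differentiating value ran from 2.86 to 3.56. Each pass drew its spread partly from the differentiating arrays that chose the gene.

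The change from proliferating to differentiating cells was then measured within each genotype, from the separate channels. This asks how mitogen withdrawal moves ligands and receptors, and every value here shares the slide as stated above. Pros1 fell in both genotypes, with a log2 change of -2.09 in WT cells (4.26-fold lower, 95% interval -2.74 to -1.44, adjusted p = 0.00293) and of -1.30 in KO cells (2.46-fold lower, -1.95 to -0.65, adjusted p = 0.0191). All 4 proliferating signals lay above both differentiating signals in each genotype. Without proliferating replicates 3 and 4 the Pros1 changes were -1.85 (adjusted p = 0.0889) and -1.05 (adjusted p = 0.242), so both calls ended. Without differentiating replicate 1 the WT change was -1.76 (adjusted p = 0.0852), and the KO call also ended without proliferating replicate 1 or 3 or either differentiating array (adjusted p = 0.0765 to 0.142).

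Axl rose in KO cells by 1.53 (2.88-fold, 95% interval 0.73 to 2.33, adjusted p = 0.0222), and 1.48 without proliferating replicates 3 and 4 (adjusted p = 0.0202). In WT cells its change was 1.18 (0.38 to 1.98, adjusted p = 0.0554). That value was 1.47 without proliferating replicate 4 (adjusted p = 0.00161) and 1.38 without replicates 3 and 4 (adjusted p = 0.0255), and then passed. In both genotypes the differentiating Axl signals, 9.34 and 9.28 in WT and 9.70 and 9.15 in KO, lay above every proliferating signal.

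Mertk rose in KO cells by 1.02 (2.03-fold, 95% interval 0.51 to 1.53, adjusted p = 0.0196), and 1.07 without proliferating replicates 3 and 4 (adjusted p = 0.0434). In WT cells its change was 0.34 (-0.18 to 0.85, adjusted p = 0.349), where replicate 4 of the proliferating cells, at 8.38, lay above both differentiating signals. Whether the Mertk changes differ between genotypes was not tested, because that difference contains the contrast that chose the genes. Both KO calls, of Axl and of Mertk, ended without proliferating replicate 1, 2 or 3 or either differentiating array (adjusted p = 0.0650 to 0.225).

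Tyro3 had a change of -1.96 in WT cells (95% interval -3.26 to -0.67, adjusted p = 0.0503) and of -1.25 in KO cells (-2.55 to 0.04, adjusted p = 0.164). Neither passed, although all proliferating signals in each genotype were above both differentiating ones. Without replicates 3 and 4 they were -1.95 and -1.14. Without proliferating replicate 4 the WT change was -1.69 and passed (adjusted p = 0.0460). Gas6, not tested here, had a change of -0.25 in WT and of 0.46 in KO cells. Its WT signals in differentiating cells lay within the proliferating range, and 1 KO signal, 13.11, lay above the highest proliferating one, 12.98. Without proliferating replicates 3 and 4 the changes were -0.90 and 0.62, with differentiating signals below both remaining WT signals and above both remaining KO signals. Of all 18050 genes in this fit, 7.41% passed as higher and 6.59% as lower in differentiating WT cells, and 7.68% and 6.74% in KO cells, beside 1 of 4 tested members in WT and 3 of 4 in KO cells.

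**Figure D3:**
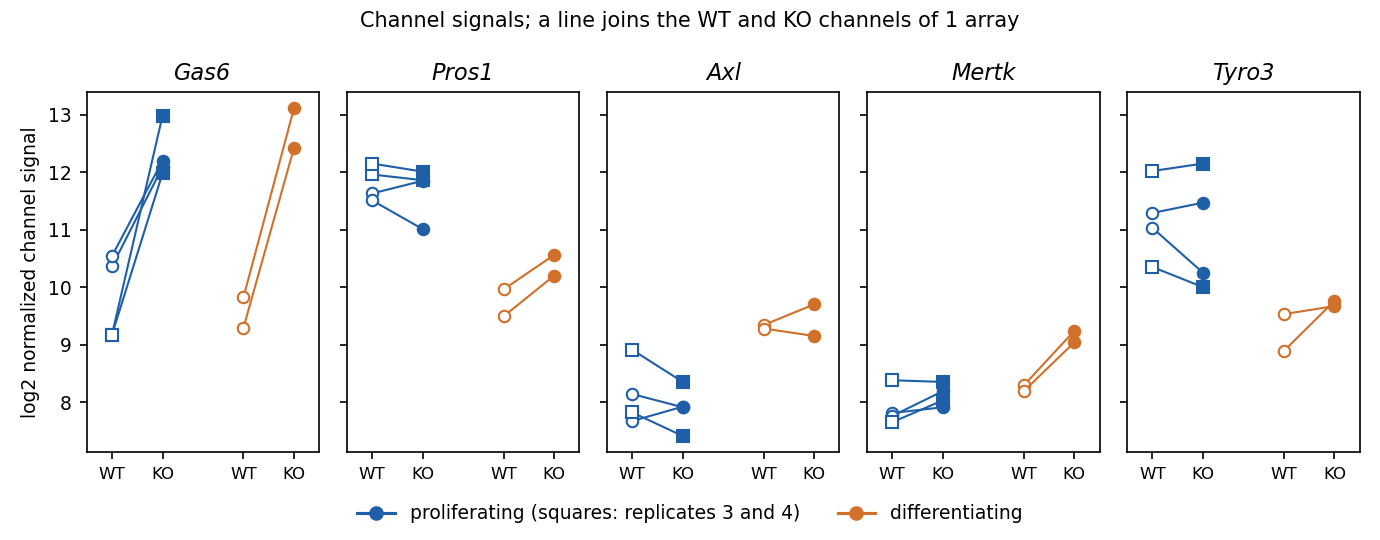
Log2 normalized channel signal (vertical axis) of WT and KO cells for each member, with a line joining the channels of an array, squares for proliferating replicates 3 and 4. Gas6 lines climb on every array, Pros1 signals are at 11.01 or more in proliferating and at 10.56 or less in differentiating cells, and levels are not comparable between genes because each has its own probe.

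Genes that act with this system were read from lists of its biochemistry. The first list held enzymes of vitamin K-dependent carboxylation and proprotein processing, which mature the ligands. It also held proteins that are not such enzymes, among them Bglap, Proc, Procr and C4bp, and 15 of 17 were tested. Pcsk5, a proprotein convertase, fell in KO cells, with log2 ratios of -0.30, -1.49, -0.52 and -1.76 in proliferating and -1.42 and -0.34 in differentiating cells. Its means were -1.02 ± 0.71 (adjusted p = 0.0162) and -0.88 ± 0.76 (adjusted p = 0.0263), and the arrays with KO RNA in Cy3 gave the larger drops in both conditions. Without proliferating replicates 3 and 4 the proliferating mean was -0.90 and no longer passed (adjusted p = 0.0536), while Pcsk6, a related convertase, passed as higher. No other gene of that list passed, and its median ratio was -0.06 and -0.04, beside -0.01 in both conditions over all genes.

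Bridging proteins, engulfment receptors and their effectors made up the next list, with 30 of 34 tested. In proliferating cells none passed, 14 of 30 had a positive ratio, beside 47.9% of all tested genes, and the median was -0.03. Cd36, a scavenger receptor that also takes up dying cells, rose in differentiating KO cells by 0.90 ± 0.32 (adjusted p = 0.0401), where just 1 of the WT channels was well above background. In proliferating cells 1 KO channel and no WT channel was, so Cd36 was tested only because of the differentiating arrays. No other gene of this list passed in differentiating cells, where 2.18% of all tested genes passed as higher. Timd4, Stab1, C1qa and C1qc were not well above background on enough arrays to be tested. Without proliferating replicates 3 and 4, Megf10 passed as lower in proliferating cells, and in differentiating cells Lgals3, Cd36 and Abca1 passed as higher and Tub as lower. Over all 18062 genes, 970 passed in differentiating cells in that setting, against 557 with all arrays.

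None of the 5 genes of receptor shedding, among them the sheddases Adam10 and Adam17 that cut the outer part off Axl or Mertk, passed in either condition. The smallest p there belonged to Rhbdf2, a partner that matures Adam17, with 0.47 ± 0.48 in differentiating cells (adjusted p = 0.273). Over all tested genes 2.18% passed as higher in differentiating KO cells. Signalling adaptors and kinases below the receptors had 26 of 27 tested, none called in proliferating and 1 in differentiating cells. That was Mapk3, the kinase Erk1, which rose by 0.83 ± 0.15 (adjusted p = 0.0280), with medians of 0.04 and 0.01 for the list. The list of growth arrest-specific genes, which also held the Gas2-like genes Gas2l1 and Gas2l3, had all 8 tested. Of these Gas2l3, a protein that links microtubules and actin, rose in differentiating KO cells by 0.93 ± 0.13 (adjusted p = 0.0264), and Gas1 passed as lower in proliferating cells without replicates 3 and 4.

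**Figure D4:**
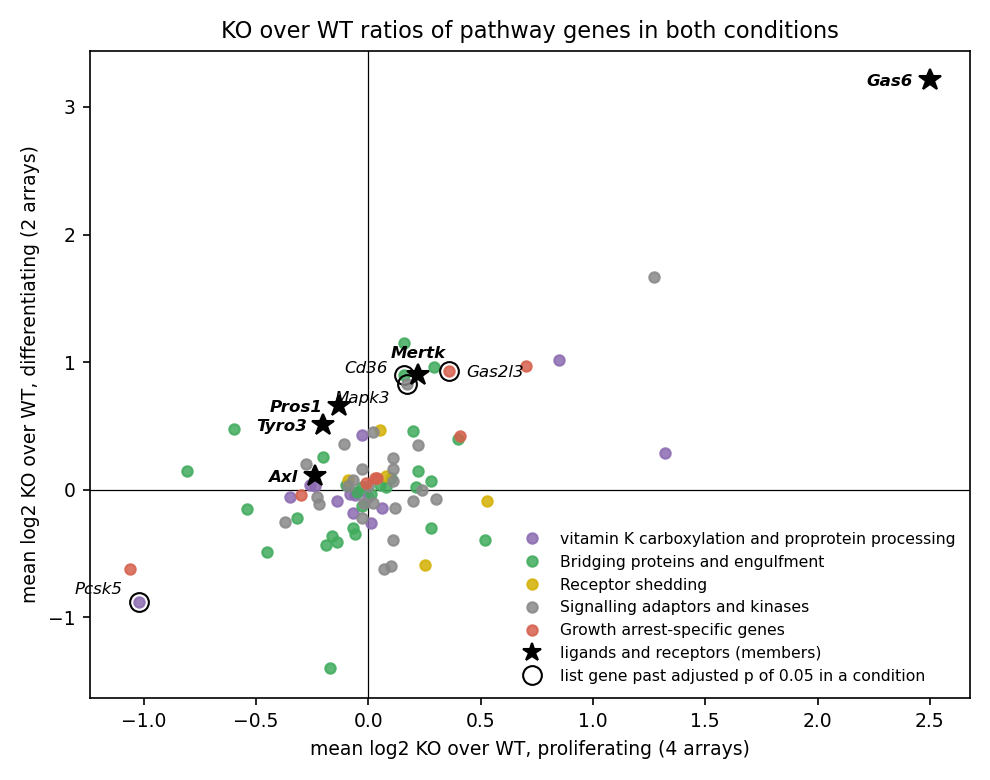
Mean log2 ratio of KO over WT cells in proliferating (horizontal axis, 4 arrays) and differentiating cells (vertical axis, 2 arrays) for genes of the 5 lists, coloured by list, and for the 5 members as stars. Circled points, Pcsk5, Cd36, Mapk3 and Gas2l3, passed the test in at least 1 condition. The star at 2.50 and 3.21 is Gas6, the gene the members were chosen for.

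The genes whose signals followed a member most closely were ranked by Pearson's r over the 12 channel signals, which share arrays and labelled RNA. For Gas6 these were 1700060H10Rik (r = 0.957), Arhgef17 (0.953), Cryzl2 (0.944), Calhm2 (0.937), the cytokine Il33 (0.934) and Pcbd1 (0.933), a cofactor recycling enzyme. Since Gas6 separates the genotypes over these channels, likeness to it selects genes with a KO over WT ratio above 0, and their ratios are given with no test. They ran from 0.35 (Calhm2) to 1.59 (Pcbd1) in proliferating and from 0.50 (Calhm2) to 1.49 (Arhgef17) in differentiating cells, all below those of Gas6. The genes most like Mertk were Aqp4 (r = 0.977), the water channel of astrocytes, Rab7b (0.977) and Gbp6 (0.969). Mertk was highest in the differentiating KO channels, so likeness to it selects genes that are high there. Their mean ratios in differentiating cells were 2.91, 2.55 and 1.23. Those most like Pros1 were Gla (0.975), Ppic (0.973) and Sox3 (0.964), for Axl they were Sccpdh (0.970), Pxmp2 (0.969) and Lgi4 (0.968), and for Tyro3 Dnajc18 (0.974), AK087356 (0.969) and Mettl7a1 (0.961). Pros1, Axl and Tyro3 separate the conditions over these channels, so likeness to them selects genes that change between conditions, which cannot be told apart from the slide.

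Markers of cell types that could carry these genes were read beside them, since in bulk RNA fewer cells of a type and less RNA per cell cannot be told apart. Microglia, which carry Axl and Mertk in the brain, left little signal, with 7 of 10 markers not well above background in any channel, among them Aif1, Cx3cr1, Csf1r and P2ry12. Only Tmem119 and Cd68 were tested, and neither passed, with the smallest p for Tmem119 in proliferating cells (-0.03 ± 0.09, adjusted p = 0.888). Tmem119 was not well above background in any proliferating channel and was tested only because of the differentiating arrays. Of the oligodendrocyte lineage markers 9 of 10 had a positive ratio in proliferating and 7 of 10 in differentiating KO cells. Over all tested genes the shares were 47.9% and 48.3%. Mog, counted as positive in both, was well above background only in the differentiating KO channels and was tested only because of them. Sox10, which specifies that lineage, rose by 2.46 ± 0.49 in proliferating KO cells (adjusted p = 0.0124) and by 2.19 ± 0.06 in differentiating ones (adjusted p = 0.0170). Cldn11, a protein of myelin tight junctions, rose in differentiating KO cells by 3.36 ± 0.77 (adjusted p = 0.0197). The lineage factors Olig1 and Olig2 and the precursor receptor Pdgfra lay on the other side of 0 there, at -0.34 ± 0.33, -0.70 ± 0.06 and -0.38 ± 0.11, and did not pass. In all 1 of 10 markers passed as higher in proliferating and 3 of 10 in differentiating cells, and the log2 of their summed signal was 15.25 to 16.15 in WT and 15.64 to 16.48 in KO proliferating cells, and 15.14 to 15.47 against 16.76 to 16.77 in differentiating cells. The part of these cells in the Gas6 signal was not tested.

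Astrocyte markers had 2 of 8 called as higher in differentiating KO cells, Aqp4 by 2.91 ± 0.11 (adjusted p = 0.00771) and Gjb6 by 1.23 ± 0.25 (adjusted p = 0.0421), and none in proliferating cells. The glutamate transporters Slc1a3 and Slc1a2 had ratios on the other side of 0, -0.96 ± 0.44 and -0.34 ± 0.48 in differentiating cells, and did not pass. The markers' summed log2 signal was 14.92 to 15.94 in WT and 15.71 to 16.14 in KO proliferating cells, and 16.10 to 16.23 against 16.46 to 16.77 in differentiating cells. Astrocytes carry Mertk, and their part in the Mertk ratios was not tested. Neuronal markers, which mark cells that carry Tyro3, had 5 of 8 called as lower in differentiating KO cells. Among them Syt1 had a ratio of -2.50 ± 0.52 (adjusted p = 0.0127) and Tubb3 of -1.56 ± 0.17 (adjusted p = 0.0147), and their summed log2 signal was 14.36 to 14.50 in WT against 13.02 to 13.22 in KO cells. In proliferating cells that sum was 12.98 to 13.23 in WT and 12.54 to 13.10 in KO cells, and no neuronal marker passed.

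Of the endothelial and mural markers 4 of 7 were tested and none passed, the smallest p being that of Kdr in differentiating cells (1.07 ± 0.21, adjusted p = 0.136), and Cdh5, Cldn5 and Rgs5 were not well above background in any channel. Of the fibroblast and meningeal markers 3 of 6 were tested and none passed. The smallest p was that of Col1a1 in differentiating cells (1.21 ± 0.26, adjusted p = 0.0639). Their summed log2 signals were 8.30 to 9.94 in WT and 9.91 to 11.04 in KO proliferating cells. In differentiating cells the sums were 11.18 to 11.55 in WT and 11.06 to 11.21 in KO. These sums include Pdgfra, which is also on the oligodendrocyte list. Schwann and neural crest markers had 4 of 5 tested and none called, the smallest p being that of Egr2 in differentiating cells (0.78 ± 1.06, adjusted p = 0.512). Of the 7 neural stem cell markers, all tested, Prom1 rose in differentiating KO cells by 1.93 ± 0.50 (adjusted p = 0.0220), and Nes, Sox2, Msi1, Vim, Hes1 and Hes5 did not pass in either condition. Nes and Sox2, which define the labelled cells, were well above background in both channels of every array. Without proliferating replicates 3 and 4, higher calls in differentiating KO cells numbered 5 of 10 oligodendrocyte, 4 of 8 astrocyte, 1 of 4 endothelial and 1 of 3 fibroblast markers, and lower calls 7 of 8 neuronal markers. Calls of either sign over all genes also increased in that setting, to 970 of 18062 in differentiating cells, against 557 with all arrays. Sox10 then remained the only oligodendrocyte marker called in proliferating cells.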

How the data were processed

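RNA of WT and KO neural stem cells was hybridised on 6 Agilent arrays with 2 colours, 500 ng of total RNA per label, per the labels. Cy5 carried the KO RNA on replicates 1 and 3 of the proliferating and 2 of the differentiating cells, and Cy3 on the others. Spot intensity values, mean pixel signal and local median background, were deposited as output of Agilent Feature Extraction 9.5.1.1, per the file headers. The deposited log10 ratios of that program were turned to KO over WT in the authors' table (differences up to 5e-06).

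Background was corrected by normexp with an offset of 50 in limma 3.58.1 (R 4.3.3, statmod 1.5.0) and normalized by loess within arrays, with 1639 control spots and 859 outlier-marked spots left out. The brightest probe stood for a gene, and 18062 genes were tested, where either channel was well above background on 2 arrays or more. The 6 arrays' ratios entered a single limma fit (lmFit, eBayes) with a term for each condition and for the dye. Changes between conditions came from the separate-channel fit after Aquantile (intraspot correlation 0.763, 18050 genes). Adjusted p-values are 2-sided Benjamini-Hochberg values over all tested genes, and a gene passed under 0.05. Differences on the log2 scale are understated for dim probes, and the number of arrays limits the precision. The scripts were tested on simulated data.

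Members and lists were chosen with earlier results of these data known. Named genes were the members, Dnmt3a, list genes that passed (up to 3 of each sign and contrast, 2 for markers, by smallest p, or the 1 of smallest p where none passed) and the genes most like a member. Genes that passed only without replicates 3 and 4, and markers on the other side of 0, were named after their values were seen.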

Additional observations from a re-analysis of the deposited data

Results flagged for a closer look

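Pros1 in KO cells of proliferating replicate 2 had a log2 signal of 11.01, below the 11.85, 11.86 and 12.01 of replicates 1, 3 and 4, and its distance to the nearest of them was 0.843 of the whole range. The WT signal on the same array was 11.51, also the lowest of its group. Over the 15 groups of 4 values looked at (ratio, WT and KO signal of each member), chance marks about 1 in 20.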

How the results depend on the processing

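Gas6 kept its sign under every one of the 19 alternatives in both conditions. In proliferating cells it passed with a normexp offset of 10 (2.56), median centring (2.58), no dye term (2.50), only probes well above background everywhere (2.50), array weights (2.71) and without proliferating replicates 3 and 4 together (1.69), and stayed above 0.05 under the other 13. All of these passes drew their spread partly from the differentiating arrays that chose the gene. In limma's fit of the proliferating arrays alone the adjusted p of Gas6 was 0.189. The stricter filter tests fewer genes, and the cause of the other shifts was not tested. Leaving out 1 replicate at a time gave 2.01 to 2.90 in proliferating and 2.86 to 3.56 in differentiating cells. Genes called in proliferating cells, 172, numbered 277 with Agilent's processed signals, 293 with an offset of 10, 101 with no filter on dim probes, 269 with the authors' value table and, in limma's fit of the proliferating arrays without the others, 0 (2275 with an unadjusted p under 0.05), and 0 to 171 with 1 replicate left out. In differentiating cells, 557 became 285 with median centring, 338 with the stricter filter, 2413 with array weights, 970 without proliferating replicates 3 and 4 together and 1586 with the differentiating arrays alone and no dye term, and 0 to 534 with 1 replicate left out. The 0 counts with 1 replicate left out came from leaving out a differentiating array. The 1 differentiating array left then sets its own condition term and adds nothing to the estimated spread. The proliferating fit is then the same as that of the proliferating arrays alone. The cause of the other shifts in these counts was not tested. Calls for the difference of KO effects ran from 0 (median centring, 1582 unadjusted) to 216 (array weights), for withdrawal from 161 to 3736 in WT and from 132 to 4635 in KO cells. The proliferating Tyro3 ratio ran from -0.38 (without replicate 1) to 0.06 (without replicate 2) and that of Axl 0.01 without replicates 3 and 4 together. Tyro3 in WT cells on withdrawal passed under 5 of 14 alternatives.

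With only 2 shared numbers, replicate numbers were not taken as pairs. The correlations between same-numbered arrays were -0.369 and -0.288. Same-numbered arrays carry the KO RNA in opposite dyes, so these correlations cannot decide if the cultures are paired. A replicate block as a random effect gave Gas6 2.50 (adjusted p = 0.0577), 184 calls in proliferating and 573 in differentiating cells. A slide block could not be fitted, because each slide holds 1 condition.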
